A study of Mus musculus with 8 samples.

Results

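Interferon-stimulated genes were followed in primary fibroblasts from mouse hearts, as 39 genes chosen by symbol: 11 genes typical of a type I response (the Ifit, Oas and Mx families and Isg15), 8 GTPases typical of interferon gamma (Gbp, Irgm, Igtp and Iigp1), and 20 others. All 39 were found among the 24306 named genes of a 1-colour Agilent array, on 67 spots, and the brightest spot stood for each gene. The cells were wild type or labelled as Siah knockout, and were kept untreated or placed in a chamber at 1% O2 for 6 h, which made 4 groups of 2 samples: wild-type normoxia, wild-type hypoxia, knockout-labelled normoxia and knockout-labelled hypoxia. All were grown in DMEM with fetal bovine serum and none was given interferon per the labels, which do not say which Siah gene was deleted, how, in what strain or age of mouse, or whether hearts were pooled. The design text calls the samples of a group biological replicates but does not say which share an animal or a culture, so p-values measure only the spread between these samples.

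Interferons are secreted proteins that warn cells of infection. Type I interferons bind the Ifnar1 and Ifnar2 receptor and, through the kinases Jak1 and Tyk2, assemble a complex containing Stat2 and Irf9 that binds interferon-stimulated response elements. Interferon gamma binds Ifngr1 and Ifngr2 and acts on gamma-activated sequences, with Irf1 as a second-tier factor. The genes they turn on block viral translation, degrade viral RNA, tag proteins with Isg15 or attack the vacuoles of intracellular parasites, and many are shared by both pathways. Fibroblasts and macrophages both respond, and many cells hold a low tonic level of these transcripts without infection.

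The promoter sequences carry these binding elements, and 1 window is shown for each of 5 members. They were chosen as the 2 type I genes, 2 GTPases and 2 other members with the highest mean signal among those that hold the response element. The window of Oas1a is left out, since its element lies before the start in the RefSeq promoter table but inside the gene's span in the RefSeq gene table. The response element was searched as GAAA, any 2 bases and GAAA again, and the gamma-activated sequence as TTCNNNGAA, on both strands, in the 250 bases before the RefSeq start of transcription (build GRCm38.p6). Both searches could share bases. Sequences run 5′ to 3′ on the gene's strand, and capitals mark the response element nearest to the start. A run of TTTC in capitals is that element on the opposite strand.
Isg15, chr4:156200860-156200899, minus strand: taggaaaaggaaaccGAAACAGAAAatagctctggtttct
Irgm1, chr11:48871421-48871459, minus strand: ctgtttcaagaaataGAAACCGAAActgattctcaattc
Gbp2, chr3:142620589-142620628, plus strand: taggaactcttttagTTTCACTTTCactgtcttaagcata
Bst2, chr8:71537572-71537611, minus strand: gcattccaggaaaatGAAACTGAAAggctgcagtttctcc
Stat2, chr10:128270261-128270300, plus strand: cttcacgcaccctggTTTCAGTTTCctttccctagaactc

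A promoter window was matched for 29 members. The response element was present in 16 of these 29 (55.2%), against 936 of 27025 genes with a window (3.46%). It was found in 7 of 7 gamma-type GTPases, in 5 of 8 type I genes and in 4 of 14 other members. The 5 type I genes, and so the 16 members, include Oas1a, whose window was left out above. The gamma-activated sequence was present in 9 of 29 members (31.0%), against 8.13% of all genes, and in 4 of the 7 GTPases. In the windows shown, the first base of the element lay 24 bases before the start in Irgm1, 59 in Gbp2, 66 in Isg15, 124 in Bst2 and 222 in Stat2. A match describes letters in a window, not a bound site.

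Levels are the deposited log2 intensities, and each is compared between samples for a gene, not between genes. All 8 columns shared nearly the same distribution, and correlations over all genes ran from 0.978 to 0.982 within groups and from 0.971 to 0.989 between them. Normoxia and hypoxia samples of the same genotype and number correlated at 0.984 and 0.987 in wild type and at 0.986 and 0.989 in knockout-labelled cells. Each of these values was above every within-group value. Siah2, the family member whose level differed most in normoxia, was measured at 9.04 and 8.71 in wild-type normoxia and at 6.60 and 7.39 in knockout-labelled normoxia, but at 9.29 and 8.87 in knockout-labelled hypoxia. The wild-type hypoxia samples had 9.55 and 8.96, so Siah2 did not separate the genotypes in hypoxia. Where that spot lies relative to the deletion is not known from the labels. The Y-linked gene Eif2s3y ran from 8.80 to 9.10 in wild type and from 3.39 to 4.01 in knockout-labelled samples, so the sex of the donor animals may move with genotype and cannot be told apart from it. Fibroblast markers such as Col1a1 (15.33 to 15.59) and Vim (15.39 to 15.66) were bright in all 8 samples, which matches the labelled cell type. Macrophage and leukocyte markers were also bright, among them Cd68 (11.42 to 13.38) and Csf1r (11.88 to 14.29), so the cultures held transcripts of a second cell type.

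Of the 39 members, 38 passed a filter that removed the dimmest 30% of genes, which lay at or under a mean of 3.39. The exception was Oas3, an oligoadenylate synthetase, whose levels lay between 2.62 and 3.42. In each list, most members were highest in wild-type normoxia replicate 2, and most were lowest in knockout-labelled hypoxia replicate 2. The highest level fell in wild-type normoxia replicate 2 for 32 of the 38 (84.2%), against 12.1% of all genes tested. The lowest level fell in knockout-labelled hypoxia replicate 2 for 24 of 38 (63.2%), against 11.3% of all genes tested. Every comparison between groups includes at least 1 of these 2 samples.

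**Figure D1:**
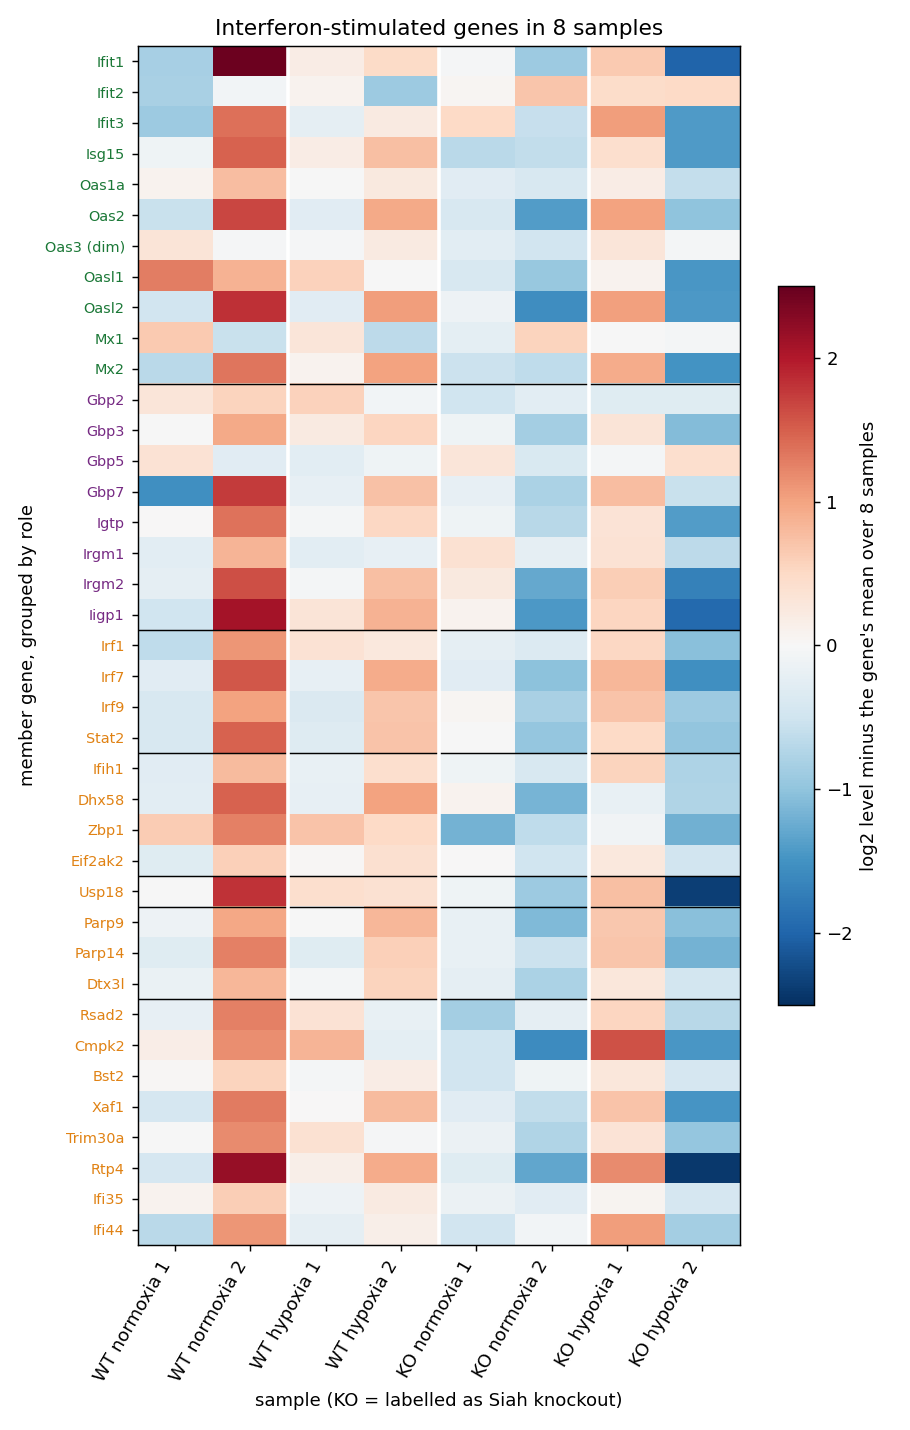
Log2 level of each of the 39 members (rows, grouped by role, with type I genes in green, gamma-type GTPases in purple and other members in orange) in each of the 8 samples (columns), minus the gene's mean over the samples. WT normoxia 2 is the reddest column, with the highest level of 32 of the 38 members that passed the filter, and KO hypoxia 2 is the bluest, with the lowest level of 24; Oas3 is marked as dim.

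Among type I genes, Isg15, a ubiquitin-like protein that is conjugated to other proteins, was measured at 12.07 and 13.64 in wild-type normoxia (replicate 1, then replicate 2), 12.35 and 12.92 in wild-type hypoxia, 11.50 and 11.55 in knockout-labelled normoxia, and 12.58 and 10.76 in knockout-labelled hypoxia. The genotypes overlapped through knockout-labelled hypoxia replicate 1, the highest knockout-labelled sample, and replicate 2 of that group was the lowest of all. Ifit1, which binds viral RNA that lacks host cap methylation, had 5.32 and 8.60 in wild-type normoxia, 6.33 and 6.63 in wild-type hypoxia, 6.11 and 5.24 in knockout-labelled normoxia, and 6.81 and 4.15 in knockout-labelled hypoxia. The wild-type normoxia samples of Ifit1 lay 3.28 apart, one of them below 2 knockout-labelled samples. For Oasl2, an oligoadenylate synthetase-like protein, the levels were 7.38 and 9.69, 7.59 and 8.90, 7.74 and 6.31, and 8.89 and 6.43 in the same order of groups. Oas2, which makes the oligoadenylates that switch on RNase L, gave 6.03 and 8.26, 6.30 and 7.53, 6.17 and 5.18, and 7.58 and 5.58. Both genes were high in replicate 2 of the wild type and in knockout-labelled hypoxia replicate 1, and low in both knockout-labelled replicate 2 samples.

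Oas1a, another synthetase, had 10.39 and 11.07, 10.30 and 10.54, 10.01 and 9.91, and 10.48 and 9.71. All 4 wild-type samples of Oas1a lay above 3 of the knockout-labelled samples, and knockout-labelled hypoxia replicate 1 lay among them. Ifit3, a partner of Ifit1, ran from 7.82 to 10.61 and Mx2, an antiviral GTPase, from 2.90 to 5.73, each from knockout-labelled hypoxia replicate 2 to wild-type normoxia replicate 2.

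Not every type I gene had that profile. Ifit2, of the same family as Ifit1, was measured at 5.47 and 6.22 in wild-type normoxia, 6.37 and 5.37 in wild-type hypoxia, 6.34 and 6.98 in knockout-labelled normoxia, and 6.75 and 6.78 in knockout-labelled hypoxia. It was highest in knockout-labelled normoxia replicate 2, and its genotypes overlapped by a single pair of samples. Mx1, a dynamin-like GTPase that blocks influenza virus in mice with an intact gene, ran from 4.31 to 5.61 with its highest level in wild-type normoxia replicate 1. A second, dimmer Mx1 spot was highest in wild-type normoxia replicate 2, at 4.95. Oasl1, which in mouse limits translation of Irf7 mRNA, had 7.14 and 6.72, 6.43 and 5.84, 5.46 and 4.90, and 5.94 and 4.40 in the same order of groups. Replicate 1 exceeded replicate 2 of Oasl1 in all 4 groups, and only knockout-labelled hypoxia replicate 1 reached above the lowest wild-type sample. A second, dimmer Oasl1 spot differed by -0.36 on the log2 scale between knockout-labelled and wild-type samples, against -1.36 for the spot used.

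The gamma-type GTPases attack vacuoles and membranes around intracellular microbes. Irgm2 was measured at 8.63 and 10.47 in wild-type normoxia, 8.80 and 9.61 in wild-type hypoxia, 9.11 and 7.57 in knockout-labelled normoxia, and 9.47 and 7.17 in knockout-labelled hypoxia. Iigp1 (also called Irga6), which disrupts the Toxoplasma vacuole in mouse cells, gave 4.97 and 7.56, 5.79 and 6.33, 5.55 and 4.04, and 6.01 and 3.53. In both, on the spots used, wild-type normoxia replicate 2 was highest and knockout-labelled hypoxia replicate 2 lowest. A second, dimmer Iigp1 spot was highest in knockout-labelled hypoxia replicate 1, at 5.96, and also lowest in replicate 2 of that group, at 4.27. Gbp2, a guanylate-binding protein whose response element is shown above, had 9.44 and 9.70, 9.72 and 9.08, 8.65 and 8.88, and 8.85 and 8.84. All 4 knockout-labelled samples of Gbp2 lay below all 4 wild-type samples, and its replicates in knockout-labelled hypoxia were nearly equal. Irgm1, which regulates the other Irg GTPases and carries the response element shown above, had 10.52 and 11.63, 10.53 and 10.58, 11.17 and 10.57, and 11.15 and 10.14. Only wild-type normoxia replicate 2 stood above all knockout-labelled samples of Irgm1. Gbp3, Gbp7 and Igtp (also called Irgm3) also peaked in wild-type normoxia replicate 2, at 8.90, 6.53 and 9.43. Gbp5, which promotes inflammasome assembly, ran from 5.91 to 6.70 with its highest level in knockout-labelled hypoxia replicate 2. On the spots used, Gbp2 and Gbp5 were the only 2 of the 8 GTPases not highest in wild-type normoxia replicate 2. A second, dimmer Gbp5 spot was highest in that sample, at 5.24. Members of the Gbp, Irgm, Oas and Ifit families resemble each other in sequence, and whether a spot read a relative as well was not tested, since probe sequences were not used here.

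The 4 transcription factors among the members had the same profile as most of the effectors. Stat2, a subunit of the complex that binds the response element, was measured at 8.92 and 10.79 in wild-type normoxia, 9.005 and 10.03 in wild-type hypoxia, 9.31 and 8.35 in knockout-labelled normoxia, and 9.81 and 8.34 in knockout-labelled hypoxia. Irf7, which amplifies interferon production, gave 9.85 and 11.70, 9.95 and 11.08, 9.86 and 9.12, and 10.96 and 8.61. Irf9, the DNA-binding subunit of the complex with Stat2, ran from 8.70 to 10.60, and Irf1 ran from 8.22 to 10.35. All 4 factors were highest in wild-type normoxia replicate 2 and lowest in knockout-labelled hypoxia replicate 2. The genotypes overlapped in each.

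Sensors, the feedback regulator and the remaining effectors gave the widest and some of the narrowest ranges. Rtp4, a chaperone for receptor transport, gave 8.22 and 10.81, 8.79 and 9.58, 8.35 and 7.35, and 9.82 and 6.23 in the order of groups above, and its knockout-labelled hypoxia replicates lay 3.59 apart. Usp18, the protease that removes Isg15 from proteins and damps the type I receptor, ran from 4.74 in knockout-labelled hypoxia replicate 2 to 8.91 in wild-type normoxia replicate 2. Zbp1, a sensor of Z-form nucleic acid that can start necroptosis, was measured at 8.82 and 9.45 in wild-type normoxia, 8.90 and 8.68 in wild-type hypoxia, 7.01 and 7.56 in knockout-labelled normoxia, and 8.09 and 6.98 in knockout-labelled hypoxia. For Zbp1, as for Gbp2, every knockout-labelled sample lay below every wild-type sample. Cmpk2, a mitochondrial nucleotide kinase, had 4.42 and 5.42, 5.09 and 4.01, 3.74 and 2.68, and 5.84 and 2.81 in the order of groups above, so the highest and the lowest levels were both in knockout-labelled samples. Rsad2, the radical enzyme viperin that makes a chain terminator of viral RNA synthesis, ran from 3.46 in knockout-labelled normoxia replicate 1 to 5.57 in wild-type normoxia replicate 2. Parp9, Parp14 and the ligase Dtx3l, partners in ADP-ribosylation, were all highest in wild-type normoxia replicate 2, at 8.49, 9.24 and 8.38. The RNA sensors Ifih1 (6.69 to 8.25) and Dhx58 (4.11 to 6.75) and the kinase Eif2ak2 (8.26 to 9.36), which halts translation on double-stranded RNA, were highest there too. Xaf1 (7.11 to 9.89), Trim30a (6.53 to 8.70) and Ifi44 (4.65 to 6.61) shared the most frequent profile, with the top in wild-type normoxia replicate 2 and the bottom in knockout-labelled hypoxia replicate 2. Ifi35, which binds other interferon-induced proteins, had 11.86 and 12.39, 11.65 and 11.99, 11.64 and 11.49, and 11.85 and 11.36, and its genotypes overlapped. Bst2, which tethers budding virions and whose promoter window is shown above, had a narrow range, with its wild-type samples between 11.97 and 12.59 and its knockout-labelled samples between 11.54 and 12.31.

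**Figure D2:**
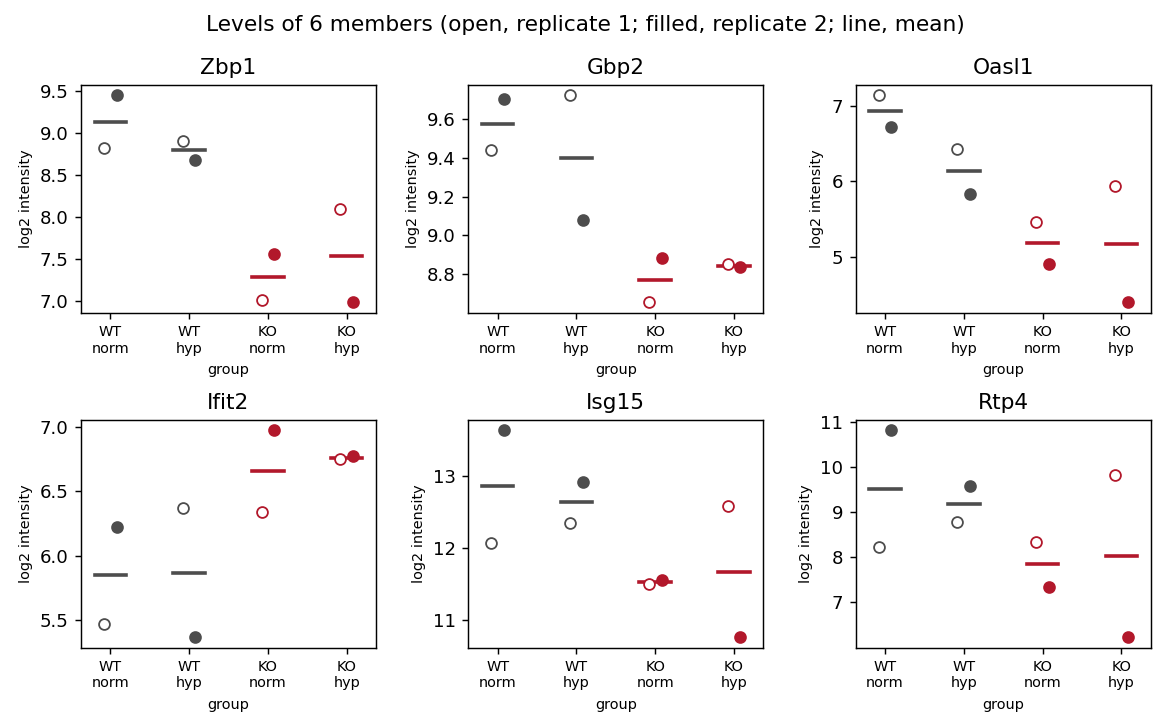
Log2 intensity of 6 members in the 4 groups, with each sample as a point (open for replicate 1, filled for replicate 2) and the group mean as a line, on axes that do not start at 0. Zbp1 and Gbp2 are the only members shown whose genotypes do not overlap, the knockout-labelled samples of Ifit2 lie between 6.34 and 6.98, and the 2 knockout-labelled hypoxia samples of Rtp4 lie 3.59 apart.

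Over each list, the type I genes and the gamma-type GTPases had the same samples at the top and at the bottom. The median type I level, relative to each gene's mean, was -0.52 and 1.35 in wild-type normoxia, 0.09 and 0.36 in wild-type hypoxia, -0.27 and -0.62 in knockout-labelled normoxia, and 0.56 and -1.41 in knockout-labelled hypoxia. The corresponding GTPase medians were -0.12 and 1.15, -0.05 and 0.52, -0.01 and -0.74, and 0.36 and -0.87. The type I genes spanned the wider range, and in both lists each knockout-labelled group overlapped the wild-type samples. Fibroblast markers had medians between -0.08 and 0.15, over members that differed in both directions: averaged over oxygen, Lum was at -1.25 and Thy1 at 1.05 (knockout-labelled minus wild type), and 4 of the 11 had an unadjusted p under 0.05. Macrophage and leukocyte markers (16 of 17 passed the filter; Cd163 did not) had medians of 0.38 and 0.90, 0.29 and 0.88, -0.02 and -1.22, and -0.03 and -1.20. These medians were lower in every knockout-labelled than in every wild-type sample, and lower in replicate 2 than in replicate 1 of the knockout-labelled cells. In each knockout-labelled group 2 of the 16 markers went the other way, Csf1r furthest, with replicate 2 minus replicate 1 at 0.65 in normoxia and 0.80 in hypoxia. In such mixed cultures, fewer cells of a type and less RNA per cell cannot be told apart.

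**Figure D3:**
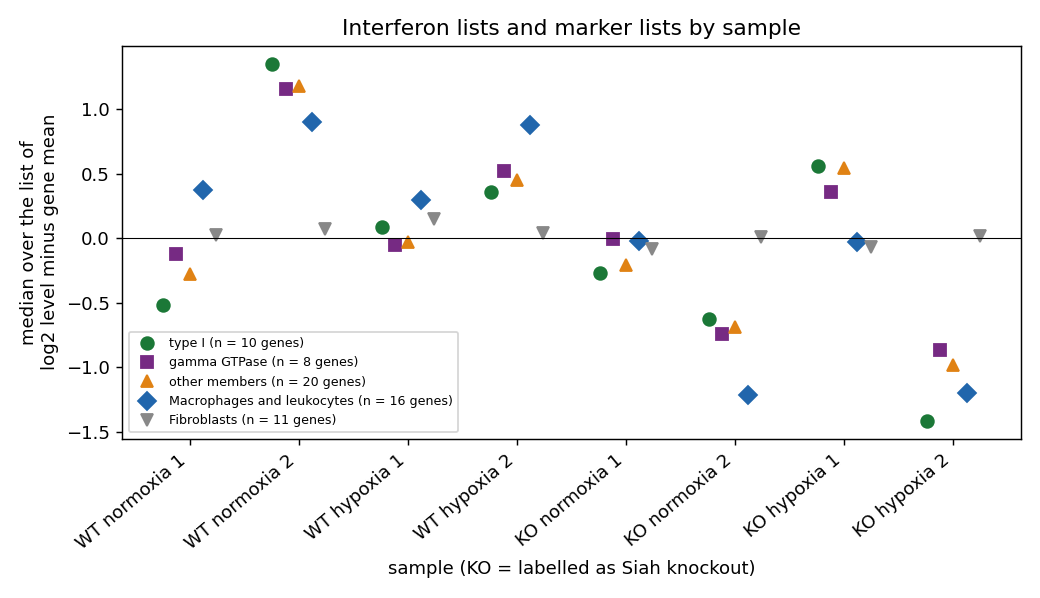
Median over each gene list of the log2 level minus the gene's mean (vertical axis) in each of the 8 samples (horizontal axis), for 3 lists of interferon-stimulated genes and 2 lists of cell type markers. The interferon lists peak in WT normoxia 2 (1.35 for type I) and are lowest in KO hypoxia 2 (-1.41), while the macrophage markers are similar between normoxia and hypoxia samples of the same number.

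Replicates of a group differed more in these genes than in most others. In wild-type normoxia, replicate 2 exceeded replicate 1 in 35 of 38 members, by a median of 1.43, and the replicates differed by more than 1 in 26 members (68.4%), against 11.4% of all genes tested. In knockout-labelled hypoxia, replicate 1 exceeded replicate 2 in 36 of 38, the median of replicate 2 minus replicate 1 was -1.55, and 28 members (73.7%) differed by more than 1, against 9.75% of all genes tested. The widest of these gaps were 3.29 in wild-type normoxia, for Gbp7, and 3.59 in knockout-labelled hypoxia, for Rtp4. The other groups were closer, with median differences of 0.42 in wild-type hypoxia and -0.59 in knockout-labelled normoxia. There 21.1% and 15.8% of members differed by more than 1, against 9.6% and 9.52% of all genes tested. Wide gaps were not particular to the members. Of the macrophage and leukocyte markers, 75% differed by more than 1 in knockout-labelled normoxia and 68.8% in knockout-labelled hypoxia. In wild type these shares were 12.5% in normoxia and 6.25% in hypoxia. Of 20 further spots of 17 members that lay above the filter level, 13 were also highest in wild-type normoxia replicate 2 and 8 were lowest in knockout-labelled hypoxia replicate 2.

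The first comparison asked how wild-type cells changed in hypoxia. Hypoxia samples had lower mean levels for 33 of 38 members, and the median difference was -0.23 on the log2 scale, against -0.01 over all genes tested. The type I median was -0.23 and the GTPase median -0.21. By limma, 0 of the 38 members passed an adjusted p of 0.05, where 0% of the 17014 genes tested were called, and 0 members had an unadjusted p under 0.05. Oasl1 had the lowest fold change at -0.80 (SE 0.53), ahead of Irgm1, a regulator of the Irg GTPases, at -0.52 (SE 0.48), and Ifi35 was at -0.31 (SE 0.28). Oas1a was at -0.31 (SE 0.34), Zbp1 at -0.34 (SE 0.43) and Gbp2 at -0.17 (SE 0.26). On the spot used, both hypoxia samples of Oasl1 lay below both normoxia samples, while the groups overlapped for Irgm1 and Ifi35. The second, dimmer Oasl1 spot went the other way, with 5.70 and 5.61 in hypoxia against 4.87 and 5.24 in normoxia. The direction for Oasl1 thus depended on the spot. Mx2 had the highest value, 0.22. The count rested on single samples: without wild-type normoxia replicate 2, 6 of 38 were lower, and without wild-type hypoxia replicate 1, 18 were. Without wild-type normoxia replicate 1 the GTPase median was -1.10.

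The same question in knockout-labelled cells gave the opposite sign and as little support. The median was 0.14, with 29 of 38 members higher, against a median of -0.02 over all genes tested. The type I median was 0.12 and the GTPase median 0.03. Again 0 members passed limma's test, with 0% of all genes called, and 0 had an unadjusted p under 0.05. Cmpk2 had the highest fold change at 1.11 (SE 1.01), and Oas2 was at 0.90 (SE 0.97). Oasl2 was at 0.64 (SE 1.11), Gbp7 at 0.60 (SE 1.06), Dtx3l at 0.43 (SE 0.45) and Gbp5 at 0.22 (SE 0.34). Usp18 had the lowest at -0.29. Without knockout-labelled hypoxia replicate 1, 4 of 38 members were higher, and without knockout-labelled normoxia replicate 2, 16 were. Without knockout-labelled hypoxia replicate 2 the GTPase median was 0.78.

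The difference between the hypoxia responses, knockout-labelled minus wild type, was above 0 in 37 of 38 members, with a median of 0.39 against -0.00 over all genes tested. By limma 0 members passed, 0% of all genes were called, and 0 members had an unadjusted p under 0.05. Cmpk2 had the largest value at 1.48 (SE 1.43), then Oas2 at 1.13, and Irf1 was the member below 0, at -0.07. On the spot used, Oasl1 was at 0.79 (SE 0.75). Its dimmer spot, which was higher in wild-type hypoxia, had 5.51 and 4.83 in knockout-labelled hypoxia against 4.72 and 4.92 in knockout-labelled normoxia. Rsad2 was at 0.89 (SE 0.86), Oas1a at 0.45 (SE 0.48), Gbp5 at 0.44 (SE 0.48) and Gbp2 at 0.25 (SE 0.37). The standard errors of these members were about as large as the differences. Leaving out either wild-type normoxia replicate 2 or knockout-labelled hypoxia replicate 1 left 12 of 38 above 0.

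Set side by side by replicate number, hypoxia minus normoxia changed sign with the number more than with the genotype. Among the replicate 1 samples, the median over members was 0.23 in wild type (31 of 38 higher) and 0.67 in knockout-labelled cells (35 of 38 higher). Among the replicate 2 samples, it was -0.74 in wild type (37 of 38 lower) and -0.39 in knockout-labelled cells (29 of 38 lower). In 22 of 38 members (57.9%), Isg15, Irf7, Stat2, Irgm2 and Rtp4 among them, hypoxia was higher in both replicate 1 pairs and lower in both replicate 2 pairs, a pattern that 7.63% of all genes tested had. No member was higher in all 4 pairs, and none was lower in all 4, against 7.69% and 9.28% of all genes tested. Gbp5 had the mirror pattern. The macrophage and leukocyte markers had medians of -0.07, 0.02, -0.01 and 0.03 in the same pairs. Between replicates of a group, most markers differed in the same direction as most members. Replicate 2 was higher in 14 of 16 markers in each wild-type group and lower in 14 of 16 in each knockout-labelled group. The part of cell content in these patterns was not tested. What a number stands for is not given in the labels, and these values carry no test.

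**Figure D4:**
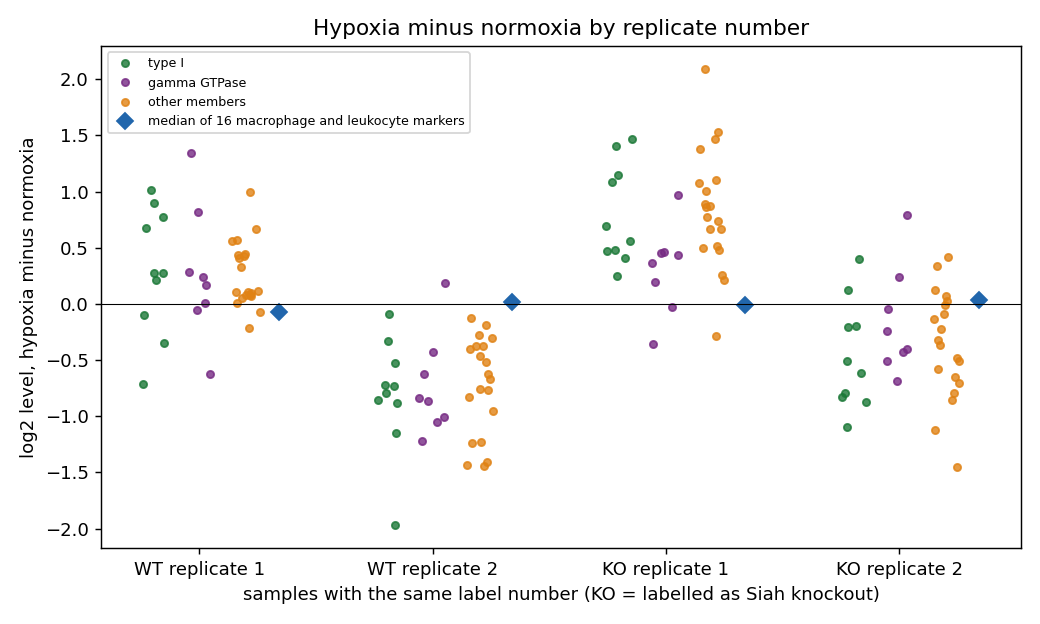
Hypoxia minus normoxia on the log2 scale (vertical axis) for samples that bear the same replicate number, with 1 point per member (38 in each column) and the median of the macrophage and leukocyte markers as a diamond. Most members lie above 0 in both replicate 1 columns and below 0 in both replicate 2 columns, while the marker medians lie between -0.07 and 0.03.

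The genotype comparison in normoxia gave lower levels in knockout-labelled cells for 36 of 38 members, with a median of -0.93 against 0.03 over all genes tested. The type I median was -1.10 and the GTPase median -0.88. Ifit2 and Mx1 were the members that were not lower. By limma 0 members passed, where 1 of all genes (0.00588%) was called. An unadjusted p under 0.05 was reached by 3 of 38 members (7.89%), against 6.48% of all genes tested. These were Zbp1 at -1.85 (SE 0.43; limma adjusted p = 0.503), Oasl1 at -1.75 (SE 0.53; adjusted p = 0.629) and Gbp2 at -0.80 (SE 0.26; adjusted p = 0.653). The second, dimmer Oasl1 spot had 4.72 and 4.92 in knockout-labelled normoxia against 4.87 and 5.24 in wild-type normoxia, so its groups overlapped. Oas1a was at -0.77 (SE 0.34), Gbp3 at -0.95 (SE 0.56) and Ifi35 at -0.56 (SE 0.28). Without wild-type normoxia replicate 2, 27 of 38 members were lower, the type I median was -0.36 and the GTPase median -0.35. Without wild-type normoxia replicate 1 these medians were -1.73 and -1.59. The GTPase median was -0.51 when knockout-labelled normoxia replicate 2 was left out.

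In hypoxia, 33 of 38 members were lower in knockout-labelled cells, with a median of -0.47 against 0.02 over all genes tested. The type I median was -0.46 and the GTPase median -0.66. By limma 0 members passed, with 0.00588% of all genes called, and 1 of 38 (2.63%), Zbp1 at -1.26 (SE 0.43; limma adjusted p = 0.700), had an unadjusted p under 0.05, against 6.24% of all genes tested. Ifit2 was at 0.89 (SE 0.43), and Iigp1 had the lowest value at -1.29 on the spot used. A second, dimmer Iigp1 spot had 4.52 and 4.52 in wild-type hypoxia against 5.96 and 4.27 in knockout-labelled hypoxia. The value for Iigp1 thus depended on the spot. Oasl1 was at -0.96 (SE 0.53), Gbp2 at -0.56 (SE 0.26), Gbp3 at -0.76 (SE 0.56) and Dhx58 at -0.87 (SE 0.73). Here a single sample decided the direction: without knockout-labelled hypoxia replicate 2, 7 of 38 members were lower, the type I median was 0.35 and the GTPase median 0.12, and without replicate 1 of that group the type I median was -1.57. Relative to each gene's mean, the median over members was 0.52 in knockout-labelled hypoxia replicate 1. It was -0.27 in wild-type normoxia replicate 1 and -0.004 in wild-type hypoxia replicate 1. Over all genes tested these medians were 0.001, -0.007 and -0.02.

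Averaged over oxygen, 4 samples against 4, 35 of 38 members were lower in knockout-labelled cells. The median was -0.75, against 0.03 over all genes tested, with -0.89 for the type I genes and -0.77 for the GTPases. By limma 0 of 38 members passed, where 8 genes in all (0.047%) were called. An unadjusted p under 0.05 was reached by 4 of 38 (10.5%), close to the 9.95% of all genes tested. Zbp1 was at -1.55 (SE 0.30; limma adjusted p = 0.161), Oasl1 at -1.36 (SE 0.38; adjusted p = 0.286) and Gbp2 at -0.68 (SE 0.18; adjusted p = 0.275), while Ifit2 was higher at 0.85 (SE 0.30; adjusted p = 0.413). Gbp3 was at -0.85 (SE 0.39) and Ifi35 at -0.39 (SE 0.20). These errors and p-values count the 4 samples of a genotype as independent, though the labels do not say which share a culture. With the culture as a random block, 1 gene in all was called. Mx1 and Gbp5 were the other members not lower, at 0.13 and 0.14 on the spots used. A second, dimmer spot of each was lower, with log2 differences of -0.55 for Mx1 and -0.12 for Gbp5. A second Zbp1 spot was lower as well, by a log2 difference of -1.67. The second, dimmer Oasl1 spot was lower by less than the spot used, with a log2 difference of -0.36. With 1 sample left out, 32 to 36 of 38 members were lower, but the medians moved: leaving out wild-type normoxia replicate 2 gave a type I median of -0.36, and leaving out knockout-labelled hypoxia replicate 2 gave -0.38. Leaving out replicate 1 of knockout-labelled hypoxia gave -1.44. The GTPase median was -0.48 without knockout-labelled hypoxia replicate 2.

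All knockout-labelled samples lay below all wild-type samples for 2 of 38 members, Gbp2 and Zbp1, a share of 5.26% against 4.86% of all genes tested. None of the 38 had all knockout-labelled samples above, against 3.96% of all genes tested. By the same count, 14 of the 16 macrophage and leukocyte markers lay below, Cd68, Csf1r and C1qa among them. The part of these cells in the genotype values of the interferon-stimulated genes was not tested.

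**Figure D5:**
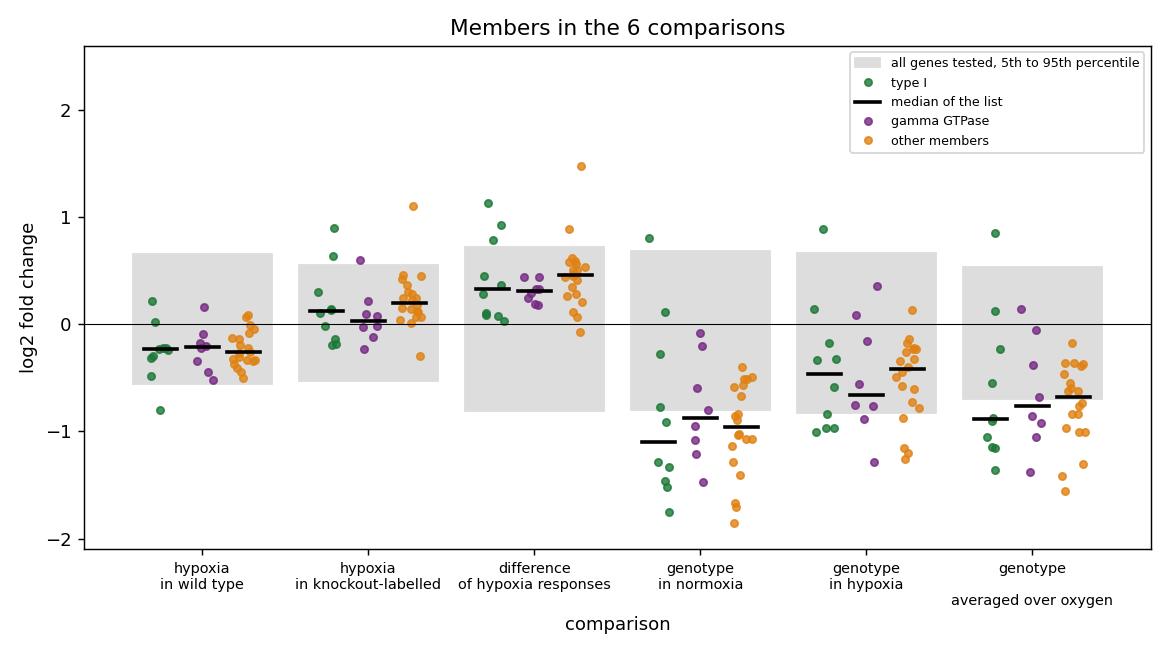
Log2 fold change of each of 38 members (points, coloured by list) in the 6 comparisons, with the median of each list as a black bar and the 5th to 95th percentile of all 17014 genes tested as a grey box. Hypoxia values are hypoxia minus normoxia and genotype values knockout-labelled minus wild type; members lie on both sides of 0 for hypoxia in knockout-labelled cells and mostly below 0 for genotype, and none passed the test.

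Ligands, receptors and kinases were read from a wider list. Of 9 ligand genes looked for, 8 were found and 5 passed the filter. Ifnb1, Ifna2 and Ifng were below it, with levels that ran from 2.74 to 4.10 for Ifnb1. The ligands that passed were dim as well, Ifna5 at 3.01 to 4.52 and Ifne at 3.40 to 5.09 among them. Receptor levels over the 8 samples were 8.57 to 9.30 for Ifnar1, 11.11 to 11.50 for Ifnar2, 10.92 to 11.30 for Ifngr1 and 10.98 to 11.38 for Ifngr2. For the receptors of lambda interferons they were 3.05 to 4.38 for Ifnlr1 and 11.29 to 11.87 for Il10rb. The kinase Jak1 ran from 11.68 to 12.08, Jak2 from 8.32 to 9.02 and Tyk2 from 6.59 to 7.62. None of these was called in any comparison.

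Of 53 further interferon-stimulated genes that passed the filter, 34 were highest in wild-type normoxia replicate 2 and 22 were lowest in knockout-labelled hypoxia replicate 2. Their sample medians had the same order as those of the members at both ends, 0.47 in the first sample and -0.33 in the second. By limma 0 of the 53 passed in any of the 6 comparisons. The smallest p for genotype averaged over oxygen were those of Phf11b at -0.94 (SE 0.17; adjusted p = 0.142) and Slfn2, a regulator of leukocyte quiescence, at -1.48 (SE 0.31; adjusted p = 0.191). In all, 4 of the 53 had every knockout-labelled sample below every wild-type sample, beside 4.86% of all genes tested.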

How the data were processed

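Total RNA of 8 samples was amplified, labelled with Cy3 and hybridised to 1 array each, per the labels' protocols. The authors deposited 1 table of 62976 spots, taken as log2 intensities. The log base was read from the values (2.13 to 16.0), and the medians of all columns (3.94) show that they were already normalized. Background correction, normalization and detection calls are not given in the sources used here; limma is named in the submitters' processing notes. The number of arrays, 2 per group, limits the precision.

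Spots were named from the platform annotation, with symbols updated through RefSeq (GRCm38.p6); 43941 spots had 1 gene. The brightest spot stood for each of 24306 genes, and 17014 remained after the dimmest 30% were removed. Group means were fitted to all 8 samples in limma 3.58.1 (R 4.3.3; 4 residual and 2.25 prior degrees of freedom), with Benjamini-Hochberg adjustment over all genes tested and a threshold of 0.05. The fit was tested on simulated data. Fold changes with errors are given for the 2 members of each list with the smallest p in a comparison, and extremes of a range are named. The members, lists and tests were chosen with earlier results of these data known. Alternatives were other filters, spot rules, models and blocks, and leaving out each sample.

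Deviations of same-numbered samples correlated at 0.31 and 0.34 within a genotype and between -0.26 and -0.38 across genotypes. The main fit used no pairs, because the labels do not say what a number shares. Its errors therefore treat same-numbered samples of a genotype as independent, which the positive values within a genotype leave in doubt. Fits with the number or the culture as a block are given below.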

Additional observations from a re-analysis of the deposited data

How the results depend on the processing

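None of the 38 members passed the test in any of 106 combinations of comparison and alternative, which covered filters, spot choice, symbols, a variance trend, only the groups compared, blocks and each sample left out. With the replicate block, the lowest limma adjusted p of a member for genotype averaged over oxygen was 0.261, and no call changed. With crossed numbers as a block, chosen after seeing the data, 453 genes in all were called for that comparison, 0 of them members, against 45 with the dimmest 50% removed, 62 with a variance trend and 1 each with the replicate block and with the culture as a random block (estimated correlation 0.431). Leaving out 1 sample moved the summaries, and the cause was not tested. For hypoxia in wild type, members lower then ran from 6 to 36, the type I median from -0.90 to 0.71 and the GTPase median from -1.10 to 0.31. For hypoxia in knockout-labelled cells, members higher ran from 4 to 36, the type I median from -0.68 to 1.08 and the GTPase median from -0.67 to 0.78. For the difference of hypoxia responses, members above 0 ran from 12 to 38, the type I median from -0.26 to 1.31 and the GTPase median from -0.37 to 0.997. For genotype in normoxia, members lower ran from 27 to 36, the type I median from -1.73 to -0.36 and the GTPase median from -1.59 to -0.35. For genotype averaged over oxygen, members lower ran from 32 to 36, the type I median from -1.44 to -0.36, the GTPase median from -1.15 to -0.48 and the median of other members from -1.09 to -0.30. For genotype in hypoxia, members lower ran from 7 to 35, the type I median from -1.57 to 0.35 and the GTPase median from -1.14 to 0.12. Of 632 fold changes of named members under alternatives, 0 crossed the threshold and 12 changed sign, all with 1 sample left out. With a sample left out, hypoxia in wild type ran from -1.08 to 0.033 for Irgm1, from -0.65 to 0.026 for Oas1a and from -0.50 to 0.15 for Gbp2. Hypoxia in knockout-labelled cells ran from -0.12 to 0.56 for Gbp5, from -0.59 to 1.86 for Oasl2, from -0.056 to 1.26 for Gbp7, from -0.41 to 2.63 for Cmpk2 and from -0.094 to 1.90 for Oas2. The difference of hypoxia responses ran from -0.075 to 0.57 for Gbp2 and from -0.038 to 2.99 for Cmpk2. No detection calls were used, so signal over background could not be weighed, and 5 of the 38 members had a mean level under 5.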
